A study of Mus musculus with 2 samples.

Results

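The genes described here are the 3 peroxisome proliferator-activated receptors (Ppara, Ppard, Pparg), the 3 estrogen-related receptors (Esrra, Esrrb, Esrrg) and the 2 PGC-1 coactivators (Ppargc1a, Ppargc1b). They were chosen by gene symbol. All 8 were measured, among 19532 genes in all, and 14 of the 41174 probes carried their symbols. The study set RNA from mouse heart against RNA from MEF (mouse embryonic fibroblasts, connective-tissue cells grown in culture) on 2 Agilent oligonucleotide arrays that read both RNAs at once in separate dyes. The hearts, numbered 1 and 2, were untreated and not cultured; the MEF were kept in serum-containing medium. Heart RNA carried the dye Cy3 and MEF RNA the dye Cy5 on both arrays, with no exchange of dyes that would cancel a probe's preference for either. Strain, age and sex are not labelled, nor is it stated that the hearts were of different animals or that a single MEF preparation was used. The p-values thus cover the spread between these arrays alone, possibly technical, and no variation among MEF cultures.

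PPARs and estrogen-related receptors (ERRs) are nuclear receptors, proteins that bind DNA next to genes of fuel use. PPARs respond to fatty acids and pair with a retinoid X receptor (RXR), whereas no natural ligand is established for the ERRs, which depend on coactivators. PGC-1 proteins do not bind DNA themselves. They are recruited by PPARs, ERRs and other factors, and in heart muscle this circuit is known for driving fatty acid oxidation and the building of mitochondria.

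Each value is a log2 ratio of heart over MEF as the authors deposited it. A value of 1 means 2-fold more signal in heart. The direction is likely rather than stated. It rests on the study's design note, which sets heart against MEF, and on the heart muscle genes, which are positive. Channel intensities were not used here, so a ratio gives no level in either RNA, and no probe can be called above or below background. Across all genes the arrays correlated at r = 0.982 (across genes, which are not replicates). Of the 10 heart muscle markers 10 were higher and of the 10 fibroblast markers 10 were lower in heart, with medians of 6.78 and -6.11. Since the sign was read from heart muscle genes, this is no separate check of it.

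All members but Ppard rose in heart: 7 of 8 were higher and 0 lower, against 33.8% of all genes higher and 39.3% lower (limma, Benjamini-Hochberg adjusted p under 0.05). At an unadjusted p under 0.05 the count of lower members was also 0. Tested against a 2-fold change with limma's treat, 7 were higher and 0 lower, against 15.1% of all genes higher and 14.6% lower by that test. These 2-fold calls rest on limma's sharing of variance across genes, without which 0 members passed beyond 2-fold and 6 of 8 were higher than 0. Of all 19532 genes 2921 were higher and 3210 lower in that fit, and its counts below are to be set against these. The 8 genes and the lists below were chosen with earlier results of these data known. The median of the 8 gene means was 2.81 and that of all genes -0.04. In RNA of a whole organ, more cells of a type and more RNA per cell cannot be told apart, and this holds for every ratio below.

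**Figure D1:**
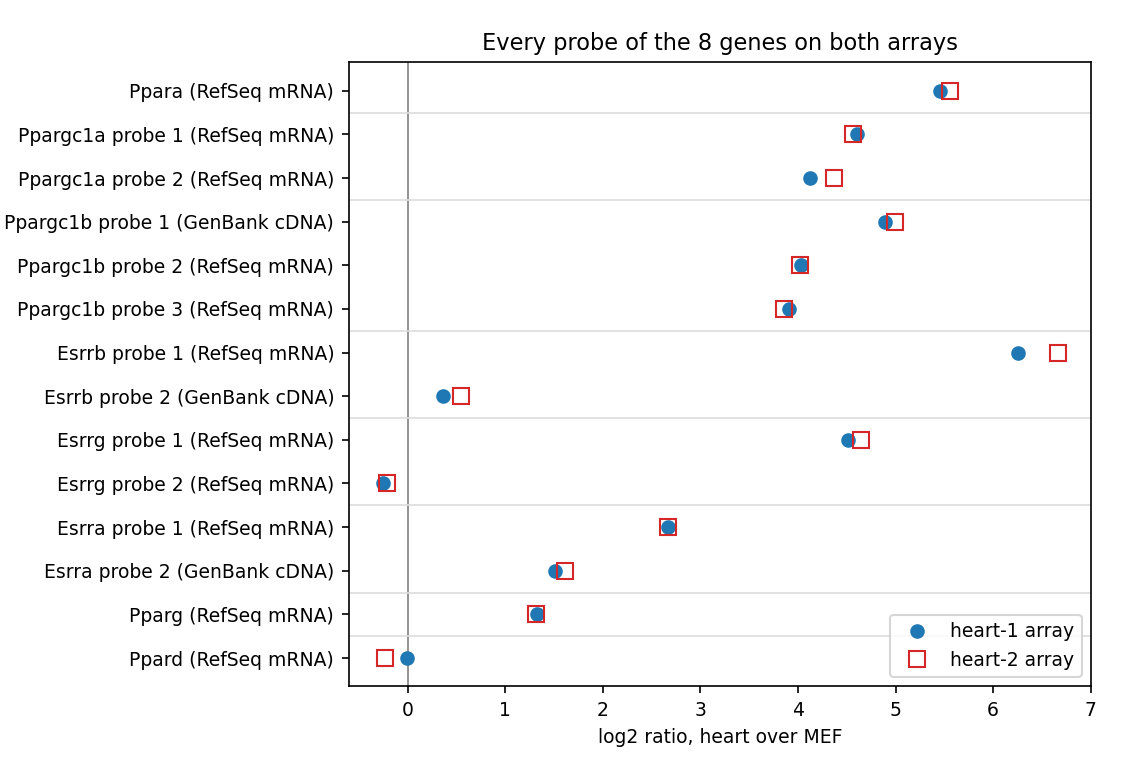
Log2 ratio of heart over MEF (x axis) for each of the 14 probes of the 8 genes (rows, in the order of the gene means), on the heart-1 array (filled circles) and the heart-2 array (open squares). The arrays lie close together for each probe, while the probes of Esrrb (6.46 and 0.45) and of Esrrg (4.58 and -0.23) lie far apart.

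Among the PPARs, Ppara stood highest. Ppara (NCBI Gene 19013), the receptor that switches on fatty acid oxidation in heart and liver, had log2 ratios of 5.46 for heart-1 and 5.56 for heart-2. Its mean was 5.51 ± 0.08 (SD, n = 2 arrays), 45.5-fold higher in heart (limma adjusted p = 0.00136). Only 1 probe measured it, and its mean ranked 189 from the top of the 19532 genes.

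Pparg (NCBI Gene 19016) is the receptor that drives the formation of fat cells and is also used by endothelial cells and macrophages. Its single probe gave 1.32 for heart-1 and 1.31 for heart-2, a mean of 1.31 ± 0.01 (SD, n = 2; limma adjusted p = 0.00179). Pparg was thus 2.49-fold higher in heart, the smallest ratio among the members that passed, and its adjusted p against a 2-fold change by limma's treat was 0.0167.

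Ppard (NCBI Gene 19015), the PPAR found in most tissues, did not pass. Its single probe gave -0.01 for heart-1 and -0.23 for heart-2, a mean of -0.12 ± 0.15 (SD, n = 2; limma adjusted p = 0.302). The difference between the arrays was larger than the distance of the mean from 0. The medians of all probes also differed, at 0.07 for heart-1 and -0.14 for heart-2. With each array centred on its median the Ppard mean was -0.08. A ratio near 0 does not show whether Ppard was abundant or scarce in both RNAs.

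The ERR genes all rose as gene means, but their probes did not move alike. Esrra (NCBI Gene 26379), the family member known for binding genes of the respiratory chain, had 2.09 for heart-1 and 2.14 for heart-2. Its mean of 2.12 ± 0.04 (SD, n = 2) was 4.33-fold higher in heart (limma adjusted p = 0.00141). The Esrra probe annotated to the RefSeq mRNA had a mean of 2.67, and the probe annotated to a GenBank cDNA had 1.56; both passed the test over all probes (limma adjusted p = 0.0022 and 0.0032).

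Esrrg (NCBI Gene 26381), which together with Esrra is known for oxidative metabolism in the heart, had gene values of 2.12 for heart-1 and 2.22 for heart-2. The mean was 2.17 ± 0.07 (SD, n = 2; limma adjusted p = 0.00155), but neither probe lay near it. One probe gave 4.51 and 4.65 on the arrays, 23.8-fold higher in heart, and the other gave -0.26 and -0.21, 1.18-fold lower. Both are annotated to the same RefSeq mRNA. The lower Esrrg probe passed over all probes as a fall (limma adjusted p = 0.0415). This call was lost in the fit with each array centred on its median (limma adjusted p = 0.448), though the mean moved only from -0.23 to -0.20.

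Esrrb (NCBI Gene 26380), best known for keeping mouse embryonic stem cells self-renewing and for its part in the placenta, had gene values of 3.31 and 3.60 for heart-1 and heart-2. The mean was 3.45 ± 0.21 (SD, n = 2; limma adjusted p = 0.00201). Without the variance shared across genes, Esrrb was the member that no longer passed (adjusted p = 0.0632). Its probes were the furthest apart of the members. The Esrrb probe annotated to the RefSeq mRNA gave 6.25 and 6.66, 87.7-fold higher in heart, the highest value of the 14 probes. The other, annotated to a GenBank cDNA, gave 0.36 and 0.54, 1.37-fold higher.

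These gaps between probes were wide by the standard of the array. Among the 8511 genes with several probes the median range of probe means was 0.95. The range of Esrrb, 6.0, was exceeded by 0.963% of them and that of Esrrg, 4.81, by 2.4%. These shares are over genes with ratios of any size. Genes with ratios as large as those of Esrrb and Esrrg were not compared apart. Esrra, at 1.11, and Ppargc1b, at 1.05, were near the median, and Ppargc1a, at 0.34, was below it. Which transcript or exon each probe reads is not given in the sources used here.

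Other stem cell genes were set beside Esrrb. Of 4 stem cell markers, all of which are also among the 12 early factors that follow, 0 passed limma's test in either direction (0 also at an unadjusted p under 0.05), with means from -0.27 to 0.12. Among the 12 early stem cell factors 2 were higher, 4 lower and 6 did not pass (median 0.01). The shares over all genes were 33.8% higher and 39.3% lower. Without the shared variance 0 of the 12 were higher and 2 lower, against 2921 and 3210 of all 19532 genes. Sox2, a factor of stem cells and neural tissue, fell to -4.27 ± 0.06 (limma adjusted p = 0.00136) and Dppa3 to -3.26 ± 0.07 (SD, n = 2 each). Pou5f1, the core pluripotency factor, gave -0.62 and 0.07 for heart-1 and heart-2 and did not pass.

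Both PGC-1 coactivators rose to a like extent. Ppargc1a (NCBI Gene 19017), the coactivator that cold, fasting and exercise induce, had 4.36 for heart-1 and 4.46 for heart-2, a mean of 4.41 ± 0.07 (SD, n = 2), 21.3-fold higher in heart (limma adjusted p = 0.00136). Its probes gave means of 4.58 and 4.24. Ppargc1b (NCBI Gene 170826), the related coactivator with a similar action on mitochondria, had 4.28 and 4.29, a mean of 4.28 ± 0.01 (SD, n = 2), 19.5-fold higher (limma adjusted p = 0.00136). Its 3 probes ran from 3.89 to 4.94. The gap between the coactivators was 0.08 for heart-1 and 0.17 for heart-2, smaller than the spread between the probes of either gene.

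In order of the gene means, the ratios ran from Ppara through Ppargc1a, Ppargc1b, Esrrb, Esrrg, Esrra and Pparg to Ppard. The array values of Esrrg and Esrra overlapped, and their means differed by 0.05. No other neighbours in this order overlapped between arrays. The probe ranges of each neighbouring pair from Ppargc1a down to Esrra did overlap, and the range of Esrrb also spanned the means of Ppara and Pparg, while the lower Esrrg probe lay below Ppard. The order thus depends on which probes are read. Over probes annotated to RefSeq mRNAs alone, a choice made after seeing the data, Esrrb came first at 6.46, ahead of Ppara at 5.51. Of the 14 probes 12 were higher, 1 lower and 1 did not pass, against 31.2% of all probes higher and 35.3% lower. The member probes past 2-fold by treat numbered 11. The share of all probes past 2-fold was not counted, so this number cannot be set against the array.

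**Figure D2:**
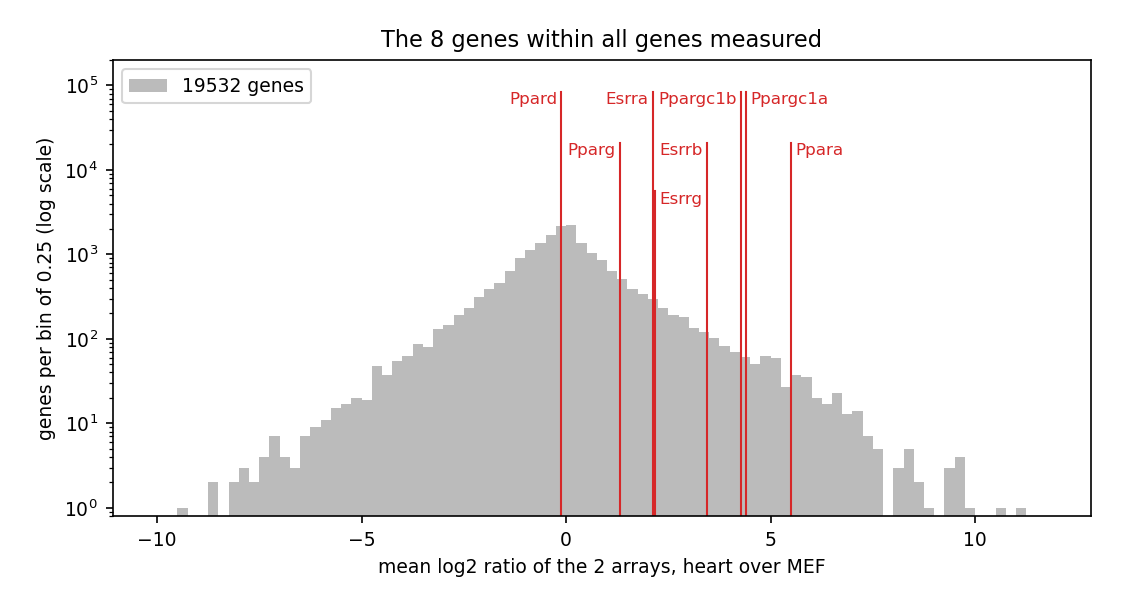
Histogram of the mean log2 ratio of heart over MEF (x axis) over 19532 genes, counted in bins of 0.25 on a log scale (y axis), with a line at the mean of each of the 8 genes. Ppard lies at -0.12, inside the central peak, and the others lie on the right flank from 1.31 (Pparg) to 5.51 (Ppara).

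The genes with the most similar pair of array values were sought for the members with the highest and the lowest gene mean, by Euclidean distance over the 2 arrays. Genes with clone-type or accession-like symbols were left out, so the nearest are those among the symbols kept. Nearest to Ppara were Nppa, at 0.027 on the log2 scale, Epp13, at 0.034, and Nppb, at 0.042. Nppa and Nppb encode natriuretic peptides, hormones of heart muscle cells. Nearest to Ppard were Olfr652, an olfactory receptor gene, at 0.0081, Btbd11, at 0.0085, and Rit2, at 0.011. With 2 arrays, such likeness says only that the ratios have the same size.

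The promoters are shown for members with contrasting ratios: the highest and the lowest PPAR, Ppara and Ppard, the coactivator Ppargc1a, and Esrrg, whose probes disagreed. The windows, from RefSeq on build GRCm38.p6, hold the 250 bases before an annotated gene start, read 5′ to 3′ on the gene's strand. Capitals mark GC boxes (GGGCGG on either strand) in Ppara and Ppard, the core letters of a cyclic AMP response element (ACGTCA) in Ppargc1a, and a MEF2-type motif (TATTTATAG) in Esrrg.
Ppara, chr15:85735526-85735775, plus strand: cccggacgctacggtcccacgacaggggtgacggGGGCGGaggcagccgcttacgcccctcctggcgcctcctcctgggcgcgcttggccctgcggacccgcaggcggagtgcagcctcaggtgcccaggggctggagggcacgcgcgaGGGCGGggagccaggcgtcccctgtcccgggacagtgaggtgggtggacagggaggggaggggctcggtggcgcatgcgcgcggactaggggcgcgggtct
Ppard, chr17:28232504-28232753, plus strand: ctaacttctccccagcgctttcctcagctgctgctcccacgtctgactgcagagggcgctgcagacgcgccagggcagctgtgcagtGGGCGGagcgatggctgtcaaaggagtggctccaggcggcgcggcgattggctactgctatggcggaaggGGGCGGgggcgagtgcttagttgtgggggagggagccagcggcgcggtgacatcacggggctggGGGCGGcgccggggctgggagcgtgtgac
Ppargc1a, chr5:51567726-51567975, minus strand: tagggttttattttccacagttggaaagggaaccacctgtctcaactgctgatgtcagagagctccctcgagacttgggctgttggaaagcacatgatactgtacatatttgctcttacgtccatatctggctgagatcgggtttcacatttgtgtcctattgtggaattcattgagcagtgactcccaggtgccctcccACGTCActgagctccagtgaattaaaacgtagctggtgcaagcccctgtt
Esrrg, chr1:187608756-187609005, plus strand, 1 of 4 annotated starts: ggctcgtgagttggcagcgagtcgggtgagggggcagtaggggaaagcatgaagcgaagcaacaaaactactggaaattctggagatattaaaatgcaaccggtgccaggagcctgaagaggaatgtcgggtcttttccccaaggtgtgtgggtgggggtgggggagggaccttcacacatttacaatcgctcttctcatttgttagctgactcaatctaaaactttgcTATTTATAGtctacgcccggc

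These windows differ in base composition. The share of G and C was 76.4% for Ppara and 69.6% for Ppard, against 48.0% for Ppargc1a, 50.8% for this Esrrg window and a median of 52.4% over 32851 windows. Ppara held 2 GC boxes and Ppard 3, a motif found in 32.7% of all windows, so it does not separate the highest PPAR from the lowest. The Ppargc1a window held ACGTCA, found in 6.47% of all windows, from 50 to 45 bases before the start. CREB-type factors are known to act on Ppargc1a through such an element. The Esrrg window was picked from the 4 of this gene because it held TATTTATAG, from 21 to 13 bases before the start. The other Esrrg windows lacked this motif, which was in 1 of the 13 member windows and in 0.408% of all windows. Having been picked for the motif, the window cannot show that the motif is a trait of Esrrg. The letters of this motif and of ACGTCA were searched for after the windows had been looked at.

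Motifs of the receptors themselves were also searched on both strands in the 13 windows of 7 members; Ppargc1b was not included. The ERR element TNAAGGTCA was in 0 of the 13, against 1.14% of all windows, and the PPAR element (2 copies of AGGTCA in the same direction, 1 base apart) in 0 of the 13, against 0.0335%. The shared core AGGTCA, which is part of both, was in 2 windows, both of Pparg, against 14% of all windows. A missing match says only that these letters are not in these windows.

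Partners and cofactors went in both directions. Of the 3 RXR genes, obligate partners of PPARs, Rxrg, a form found in muscle, rose to 7.20 ± 0.15 (SD, n = 2; 147-fold; limma adjusted p = 0.00136), with 7.10 for heart-1 and 7.31 for heart-2. Rxrb fell to -0.80 ± 0.02 (limma adjusted p = 0.00324). Rxra gave 1.22 and 0.59, a mean of 0.91 ± 0.45, and did not pass (limma adjusted p = 0.0568).

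Of 14 other coactivators 7 were higher and 7 lower (median -0.01), against 33.8% of all genes higher and 39.3% lower. Without the shared variance 3 were higher and 2 lower, against 2921 and 3210 of all 19532 genes. Perm1, a muscle regulator that PGC-1 and ERRs induce, rose to 6.38 ± 0.17 (SD, n = 2; 83.0-fold). Lpin1, a lipid phosphatase that also assists PGC-1 and PPARalpha, rose to 3.01 ± 0.01, and Kat2b, an acetyltransferase, to 1.67 ± 0.07, over 3 probes from -0.01 to 2.89. Pprc1, the third PGC-1 family gene, known from growing cells, fell to -1.88 ± 0.02 (3.69-fold lower). Kat2a, which acetylates PGC-1alpha, fell to -1.32 ± 0.05 and Ncoa3 to -0.92 ± 0.05 (limma adjusted p at most 0.00322 for these 6 genes). The PGC-1 family thus held 2 genes that rose and 1 that fell.

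Of the 6 corepressors analysed 3 were higher and 3 lower (median -0.07), against 33.8% and 39.3% of all genes. Without the shared variance 1 was higher and 0 lower, against 2921 and 3210 of all 19532 genes. By the test against 2-fold 0 passed in either direction (limma's treat; 0 also at an unadjusted p under 0.05). The largest fall was that of Tbl1x, a subunit of a corepressor complex, to -0.99 ± 0.06, and the largest rise that of Nrip1, which represses genes of fat burning, to 0.69 ± 0.01 (SD, n = 2 each; limma adjusted p = 0.00334 and 0.00386). Sirt1, a deacetylase known to act on PGC-1alpha, rose to 0.40 ± 0.02, with a limma adjusted p of 0.00929.

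Regulators of mitochondrial gene expression, which PGC-1 proteins work through, had a median of 0.41. Of 12 genes 9 were higher, 2 lower and 1 did not pass, against 33.8% of all genes higher and 39.3% lower. Without the shared variance 2 were higher and 1 lower, against 2921 and 3210 of all 19532 genes. Tfb2m, which starts mitochondrial transcription, rose to 2.18 ± 0.02 (SD, n = 2; 4.55-fold; limma adjusted p = 0.00137) and Ssbp1, the mitochondrial single-strand DNA-binding protein, to 0.95 ± 0.03. Nrf1, the nuclear respiratory factor, fell to -1.32 ± 0.04 (limma adjusted p = 0.00195) and Yy1 to -0.64 ± 0.03, over 3 probes from -2.11 to 0.90. Gabpb1 did not pass, with 4 probes from -2.10 to 2.78.

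Among 21 kinases and factors that act on PGC-1 genes or proteins, 12 were higher, 5 lower and 4 did not pass (median 0.42), against 33.8% of all genes higher and 39.3% lower. Without the shared variance 8 were higher and 3 lower, against 2921 and 3210 of all 19532 genes. The 2 that moved most belong to the AMP-activated kinase, an energy sensor. Its catalytic subunit of muscle, Prkaa2, rose to 4.97 ± 0.02 (SD, n = 2; 31.2-fold; limma adjusted p = 0.00136), and its beta subunit Prkab2 to 1.99 ± 0.02. The other catalytic subunit, Prkaa1, fell to -0.88 ± 0.02 (limma adjusted p = 0.00284). Mapk12, a p38 kinase of muscle, rose to 1.20 ± 0.03, and Camk4, a calcium-dependent kinase, fell to -1.18 ± 0.22, over 3 probes from -2.81 to -0.10. Creb1, the factor of the cyclic AMP response element, fell to -0.77 ± 0.03, over 3 probes from -1.63 to 0.21.

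**Figure D3:**
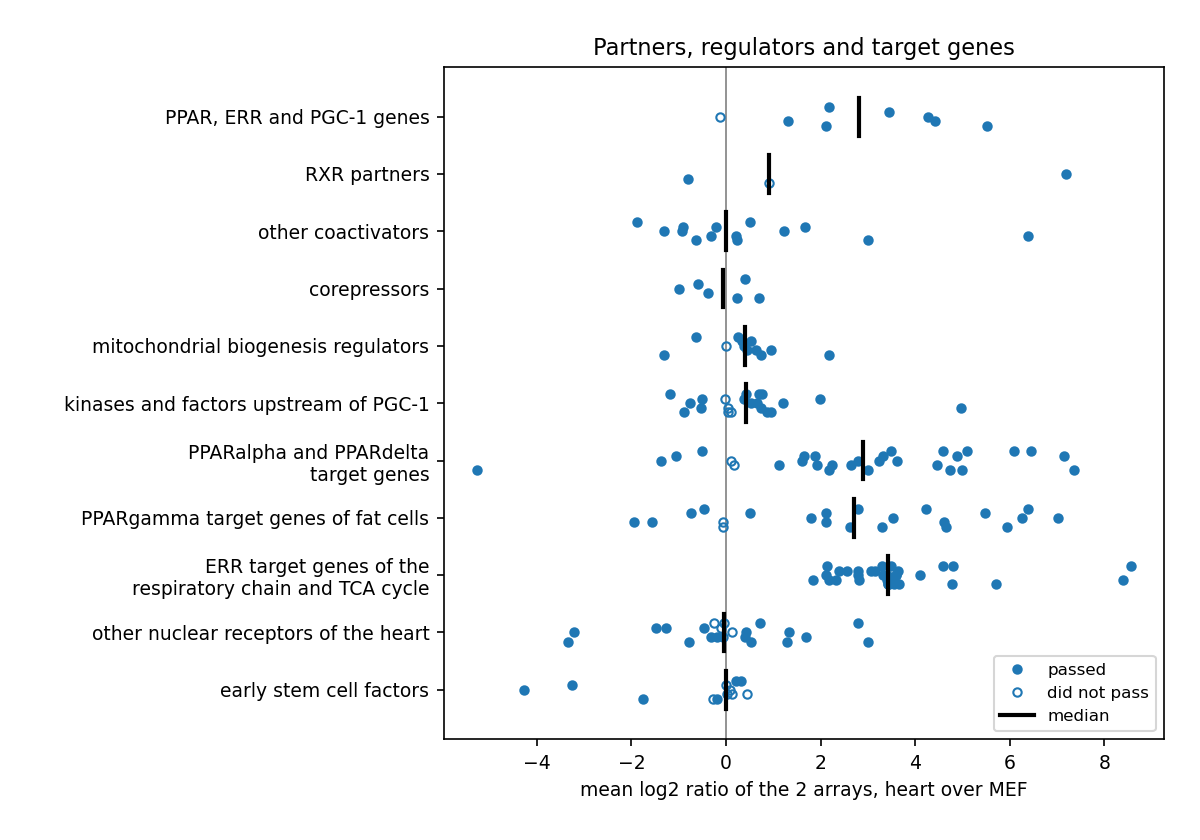
Mean log2 ratio of heart over MEF (x axis) of each gene (points; filled where limma's adjusted p was under 0.05) in the 8 PPAR, ERR and PGC-1 genes and in 10 lists of partners, regulators and targets (rows), with the median of each list as a bar. The medians of the target lists, 2.89, 2.71 and 3.42, lie near that of the 8 genes, 2.81, while those of coactivators, corepressors and other nuclear receptors lie near 0.

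Of 30 targets of PPARalpha and PPARdelta 24 were higher, 4 lower and 2 did not pass (median 2.89, against -0.04 for all genes). Over all genes 33.8% were higher and 39.3% lower. Without the shared variance 21 of the 30 were higher and 2 lower, against 2921 and 3210 of all 19532 genes. Ucp3, a mitochondrial uncoupling protein of muscle, rose to 7.36 ± 0.54, Plin5, which coats lipid droplets beside mitochondria, to 7.14 ± 0.02, the fatty acid transporter Cd36 to 6.45 ± 0.02 and Pdk4 to 6.09 ± 0.09 (SD, n = 2 each; limma adjusted p at most 0.00236).

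Targets that fell were led by Fgf21, a fasting and stress hormone, at -5.27 ± 0.52 (SD, n = 2; 38.6-fold lower; limma adjusted p = 0.0035), with -4.90 for heart-1 and -5.64 for heart-2. Plin2, the lipid droplet protein of most cells, fell to -1.38 ± 0.01 and Cpt1a, the liver form of carnitine palmitoyltransferase, to -1.06 ± 0.03. Cpt1b, the muscle form, chosen for naming after its value was seen, stood at 5.10.

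All 33 measured ERR targets of the respiratory chain and tricarboxylic acid cycle rose, and all 33 also passed against a 2-fold change by treat, against 15.1% of all genes (median 3.42, means from 1.83 to 8.57). Without the shared variance all 33 were still higher than 0, but 0 of them, and 0 of all genes, passed as more than 2-fold higher. This list holds Esrra itself. Its highest members were the muscle forms Ckmt2, the mitochondrial creatine kinase, at 8.57 ± 0.10 and Cox8b at 8.39 ± 0.11, then Cox7a1 at 5.70 ± 0.10 and the widely expressed Cox6c at 4.81 ± 0.01 (SD, n = 2 each; limma adjusted p = 0.00136). Binding of the receptors to these genes was not measured.

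Of 22 PPARgamma targets of fat cells 16 were higher, 4 lower and 2 did not pass (median 2.71). Over all genes 33.8% were higher and 39.3% lower. Without the shared variance 12 of the 22 were higher and 3 lower, against 2921 and 3210 of all 19532 genes. Slc2a4, the insulin-regulated glucose transporter, rose to 7.03 ± 0.05, the lipid droplet protein Cidea to 6.38 ± 0.13, lipoprotein lipase Lpl to 6.27 ± 0.09 and Fabp4 to 5.94 ± 0.13 (SD, n = 2 each; limma adjusted p = 0.00136). Heart muscle uses Slc2a4 and Lpl as well, and endothelium uses Fabp4. Cebpa, the partner of Pparg in fat cell formation, fell to -1.94 ± 0.07, Scd1, the stearoyl-CoA desaturase, to -1.56 ± 0.04 and Acsl5 to -0.74 ± 0.02.

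Fat, vessel and macrophage markers were read beside Pparg. Of 7 white fat markers, all of which are also in the list of PPARgamma targets, 6 were higher and 1 did not pass (3 higher without the shared variance), with means from -0.06 (Lep) to 4.60 (Adipoq). Adipoq, the hormone adiponectin, gave 5.18 for heart-1 and 4.01 for heart-2, a gap larger than that of any PPAR gene. All 8 endothelial markers were higher, from 2.68 to 7.53 (5 without the shared variance). Of 7 macrophage markers 5 were lower, 1 higher and 1 did not pass (4 lower and 0 higher without the shared variance). Over all genes 33.8% were higher and 39.3% lower, and without the shared variance 2921 and 3210 of the 19532 were. The part of fat, endothelial and macrophage cells in the Pparg ratio was not tested.

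Markers of brown fat, a tissue rich in Ppargc1a, gave a mixed picture. Of 7 markers, Ppargc1a among them, 5 were higher and 2 did not pass, with means from -0.01 (Elovl3) to 8.39 (Cox8b). Cox8b is also a muscle form, named above among the ERR targets, so its ratio does not mark brown fat alone. The next highest was Cidea, at 6.38. Over all genes 33.8% were higher. Without the shared variance 4 of the 7 were higher, against 2921 of all 19532 genes. Ucp1, the defining marker of brown fat, gave 2.21 for heart-1 and 1.25 for heart-2 (mean 1.73 ± 0.67, SD, n = 2; limma adjusted p = 0.0358), whereas Ppargc1a differed by 0.10 between the arrays. The part of brown fat in the Ppargc1a ratio was not tested.

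**Figure D4:**
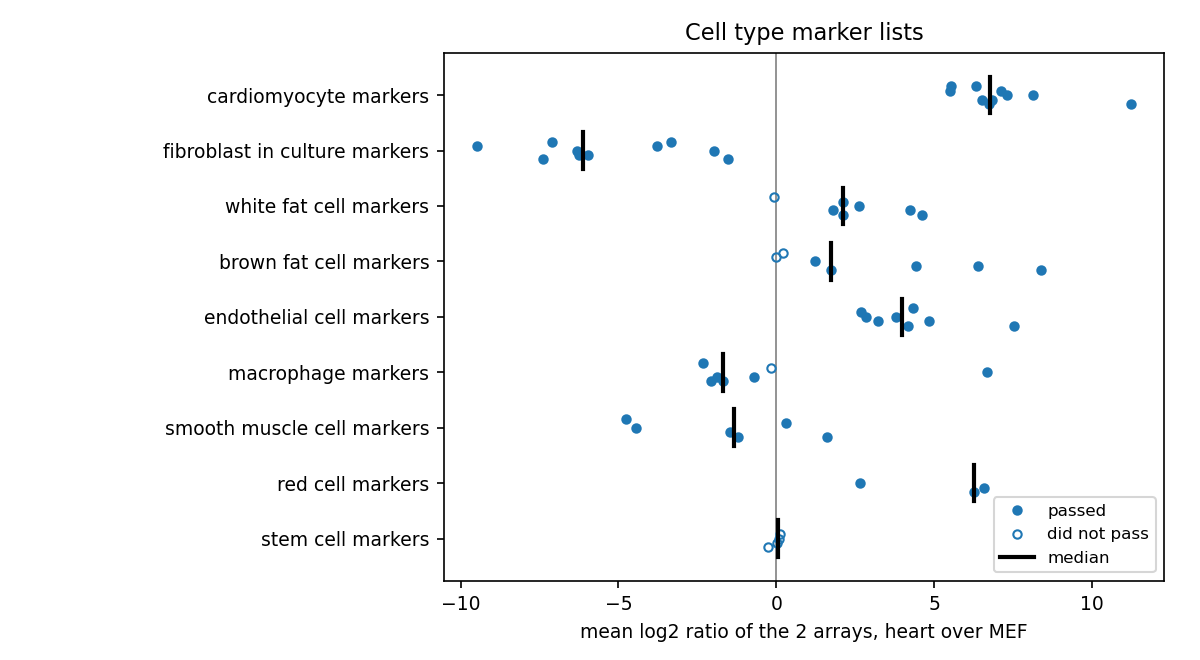
Mean log2 ratio of heart over MEF (x axis) of the markers of 9 cell types (rows; filled points passed limma's test, bars are medians). Heart muscle, endothelial and red cell markers lie to the right and fibroblast markers to the left. Fat markers run from about 0 (Lep at -0.06, Elovl3 at -0.01) to 8.39 (Cox8b, also a muscle form), and the 4 stem cell markers lie within 0.27 of 0.

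Other nuclear receptors of the heart went in both directions. Of 22 measured 9 were higher, 8 lower and 5 did not pass, near the shares over all genes of 33.8% and 39.3%. The median was -0.05, against -0.04 for all genes, and the difference from the PPAR and ERR genes was not tested. Without the shared variance 6 were higher and 1 lower, against 2921 and 3210 of all 19532 genes. Nr0b2, a receptor without a DNA-binding domain, rose to 3.0 ± 0.04 and Nr1h3, the oxysterol receptor, to 2.79 ± 0.04 (SD, n = 2 each; limma adjusted p = 0.00136). Nr2f1 fell to -3.35 ± 0.58, Nr4a1, an immediate early gene, to -3.22 ± 0.01 and the retinoic acid receptor Rara to -1.47 ± 0.06. Ppara, at 5.51, lay above every one of these 22 genes. The RXR genes are not among the 22, and Rxrg, at 7.20, lay above Ppara.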

How the data were processed

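RNA from mouse heart was set against MEF RNA on 2 arrays. The authors deposited 1 log2 ratio per probe and array for 41174 probes. Per the submitters' processing notes, Agilent Feature Extraction read the scans; no settings are named in the sources used here. Base 2 is read from the values: the largest size, 11.62, would as a natural log be a ratio above a 16-bit scanner's 65535. Array medians were 0.07 (heart-1) and -0.14 (heart-2), so the centring is unknown.

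Probes were named from the platform annotation: 32664 had 1 symbol, 45 several and 8465 none here. Each gene's probes were averaged on each array, and the mean ratio was tested against 0 with limma 3.58.1 (R 4.3.3; lmFit, eBayes, Benjamini-Hochberg over 19532 genes, adjusted p under 0.05) and against a 2-fold change with treat. With 2 arrays there is 1 residual degree of freedom, so the test leans on the variance shared across genes (prior SD 0.066, 1.25 prior degrees of freedom). A second fit ran over all probes. The number of arrays limits precision. Tables and motif counts used Python 3.11.15.

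Members and lists were chosen with earlier results of these data known. Named list genes are up to 4 with the largest absolute mean that passed and up to 3 against the majority or not passing; not all are printed. All 10 pathway and 9 marker lists are reported. Alternatives covered probe averaging, centring, quantile normalization, the variance prior, near-constant probes, single arrays and, chosen after seeing the data, RefSeq mRNA probes alone.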

Additional observations from a re-analysis of the deposited data

How the results depend on the processing

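Of the 8 members, 7 were higher and 0 lower under median probes, centring, quantile normalization, a robust prior, RefSeq mRNA probes alone (chosen after seeing the data), and without the 3644 probes in a narrow spike of near-constant values (0.1 to 0.2 on heart-1, -0.22 to -0.08 on heart-2), which held 0 member probes. RefSeq mRNA probes alone moved Esrrb to 6.46, against 3.45 over all its probes, and placed it above Ppara (5.51). Without the shared variance, which leaves 1 degree of freedom, 6 were higher: Esrrb kept its 3.45 with an adjusted p of 0.0632. That setting also left 1 gene beyond 2-fold, against 5797, with 0 members, and called 2921 genes higher and 3210 lower, against 6598 and 7685. The lower Esrrg probe, at -0.23 before and -0.20 after centring, no longer passed (limma adjusted p = 0.448). Single arrays put Ppard between -0.23 and -0.01. Of 807 values of 90 named list genes under the alternatives, 773 were counted as unchanged, 28 lost a call and 4 gained one. Of the lost calls 25 fell without the shared variance, those of Ucp3, Fgf21, Adipoq, Ucp1 and Nr2f1 among them. The unchanged include 90 values for each single array. These carry no p-value, and with 2 arrays they always lie within the SD of the mean. A change of sign with no call made was also counted as unchanged, as for Nr0b1 (mean 0.44, heart-2 alone -0.13). The 2 counted as reversed were both Gabpb1, which fell to -0.31 as a median of probes and to -1.41 over RefSeq mRNA probes. Rxra passed after centring (0.94) and after quantile normalization (0.91), with a mean of 0.91 in the main fit. In the centred fit the limma adjusted p of the named genes followed the size of the mean, with little weight on spread. Smtn and Tbx3, both at 0.35 there, had 0.0914 and 0.0915, though their SDs before centring were 0.03 and 0.11. Whether calls changed there, as for Rxra and the lower Esrrg probe, through the small shift or through this weighting was not tested. Single arrays give no counts of calls, since no residual degree of freedom is left. No paired analysis was possible because there was a single group of arrays with MEF in the second channel. Causes were not tested. Signal over background could not be judged.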

Other observations

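The macrophage markers counted beside Pparg and the smooth muscle markers went in both directions. Cd163, a scavenger receptor of resident macrophages, gave 6.31 for heart-1 and 7.03 for heart-2, while the macrophage genes Lyz2 and C1qa fell to -2.32 ± 0.01 and -2.06 ± 0.02 (SD, n = 2 each; limma adjusted p = 0.00136 and 0.00138). Without the shared variance Cd163 no longer passed. All 3 measured red cell markers were higher, from 2.66 (Slc4a1) to 6.58 (Alas2). Of 6 smooth muscle markers 2 were higher and 4 lower, with Tagln at -4.76 ± 0.02 and Myh11, the smooth muscle myosin, at 1.61 ± 0.02 (SD, n = 2 each). Without the shared variance 1 was higher and 3 lower, against 2921 and 3210 of all 19532 genes. Over all genes 33.8% were higher and 39.3% lower in the main fit.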
